A study of Mus musculus with 9 samples.

Results

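The comparison set 2 libraries of Abl.1 cells given 10 µM 5-aza-dC against 3 libraries of the same cells given 2 µM, which is 5 of the 9 libraries of the study. It asks at which genes the higher dose left more or less DNA methylation than the middle dose. Abl.1 is an immortalised B cell clone, so every library represents 1 clone, and the mouse it came from was the F1 of 129S1/SvImJ x CAST/EiJ, a female. Cells were cultured for 2 days with the drug dissolved in DMSO, or with 1% DMSO alone, and live cells were recovered on a density gradient. The other 4 libraries, 2 with DMSO and 2 with 0.2 µM, are given only as levels beside the results. The replicates are library preparations, and nothing in the labels says that they came from separate cultures, so the p-values below measure the spread between libraries, which may be technical.

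5-aza-dC (decitabine) is a cytidine analogue that cells phosphorylate and build into new DNA during replication. A DNA methyltransferase that attacks the analogue stays bound to it and is lost, so methylation is diluted as cells divide. In an untreated mouse genome most CpGs are methylated, while CpG-rich gene starts are mostly free of methylation.

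Methylation was read by reduced representation bisulfite sequencing (RRBS), which samples CpG-rich restriction fragments. The level of a stretch of DNA is the percentage of reads at its CpGs that were methylated. Reads at CpGs numbered 13049179 to 14883816 in the 2 µM libraries and 13083587 and 8590777 in the 10 µM libraries. Reads were summed in tiles of 1 kb, in windows of 1 kb either side of RefSeq gene starts, and over gene bodies, the part of a gene more than 1 kb from its starts. Each needed 10 or more reads in all 5 libraries. Of the measured start windows of B lineage marker genes, those of Ebf1, Vpreb1 and Igll1 had DMSO means of at most 1.18%, and that of Rag1 was at 44.8%. The start of the T cell regulator Bcl11b was at 84.6% in DMSO and that of Tcf7 at 4.05%. Methylation alone does not show which of these genes were expressed.

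The starts of 3 genes with calls below show how the CpGs lie that these levels are read from. Each sequence is the 250 bases before the annotated start, 5′ to 3′ on the gene's strand, from RefSeq GRCm38.p6 (mm10), with each CG in capitals. Mcts2 lies at chr2:152686898-152687147 (+), Slc6a9 at chr4:117849100-117849349 (+) and Hoxd11 at chr2:74682073-74682322 (+).
Mcts2: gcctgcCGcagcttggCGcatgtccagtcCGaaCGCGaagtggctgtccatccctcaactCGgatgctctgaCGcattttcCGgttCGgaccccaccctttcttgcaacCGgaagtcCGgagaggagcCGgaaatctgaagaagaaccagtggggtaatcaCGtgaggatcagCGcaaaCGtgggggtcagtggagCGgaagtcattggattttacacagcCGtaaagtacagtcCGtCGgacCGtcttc
Slc6a9: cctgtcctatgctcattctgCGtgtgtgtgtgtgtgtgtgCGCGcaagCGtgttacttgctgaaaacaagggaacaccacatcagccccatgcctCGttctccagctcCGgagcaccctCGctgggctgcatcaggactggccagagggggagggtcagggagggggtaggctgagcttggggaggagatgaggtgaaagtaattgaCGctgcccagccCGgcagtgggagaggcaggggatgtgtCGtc
Hoxd11: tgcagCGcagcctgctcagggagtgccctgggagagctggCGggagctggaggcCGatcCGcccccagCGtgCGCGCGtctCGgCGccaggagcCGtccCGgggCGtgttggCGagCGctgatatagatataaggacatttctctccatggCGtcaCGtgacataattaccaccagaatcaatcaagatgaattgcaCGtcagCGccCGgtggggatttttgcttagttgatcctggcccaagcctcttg
The Mcts2 stretch holds 20 CG dinucleotides, of which 17 were read in all 5 libraries. For Hoxd11 these numbers are 20 and 20, and for Slc6a9 10 and 5. The letters CG occur in 92.1% of the 32851 RefSeq stretches of this kind, with a median of 6 per stretch. In the Mcts2 stretch the level was 57.8%, 35.3% and 43.8% at 2 µM and 90% and 92.1% at 10 µM. In the Hoxd11 stretch it was 43.4%, 48.4% and 54.3% at 2 µM and 64.7% and 78.2% at 10 µM. In both stretches the 10 µM libraries lay above the 2 µM libraries. Both lie in windows called higher from the same reads, so this is not separate support. In the stretches of Flt1 and Afdn, whose windows were also called, the groups overlapped. The Flt1 stretch was at 27.1%, 41.4% and 23.3% at 2 µM and 37.6% and 58.1% at 10 µM. The stretches of the called genes Rln3 and Nfix had no reads.

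Across the genome the 10 µM cells kept more methylation. Over 86748 tiles the mean level was 34.4%, 35.0% and 35.4% in the 2 µM libraries and 47.1% and 47.3% in the 10 µM libraries. The DMSO mean over the same tiles was 59.5% and the 0.2 µM mean 23.2%. The mean level at 10 µM thus lay 12.3 points above that at 2 µM, and the libraries of the groups did not overlap. The exact two-sided permutation p was 0.1, the smallest that 3 libraries against 2 allow, so the library means cannot pass 0.05. Weighted by reads, which gives deeply read tiles more weight, the difference was 4.44 points.

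The gap widened with the methylation that the untreated cells carried. In the 18390 tiles at 0 to 10% in pooled DMSO reads, the 2 µM libraries had means of 1.54% to 1.64% and the 10 µM libraries 1.84% and 1.86%. In the 4103 tiles at 50 to 60% in DMSO the difference was 11.8 points. In the 24024 tiles at 90 to 100% in DMSO, the 2 µM libraries lay at 50.7%, 51.3% and 52.0% and the 10 µM libraries at 70.4% and 70.7%. The 2 µM cells therefore held 53.9% of the DMSO mean in that class, and the 10 µM cells 74.1%. In each of the 10 classes all 10 µM libraries lay above all 2 µM libraries.

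**Figure D1:**
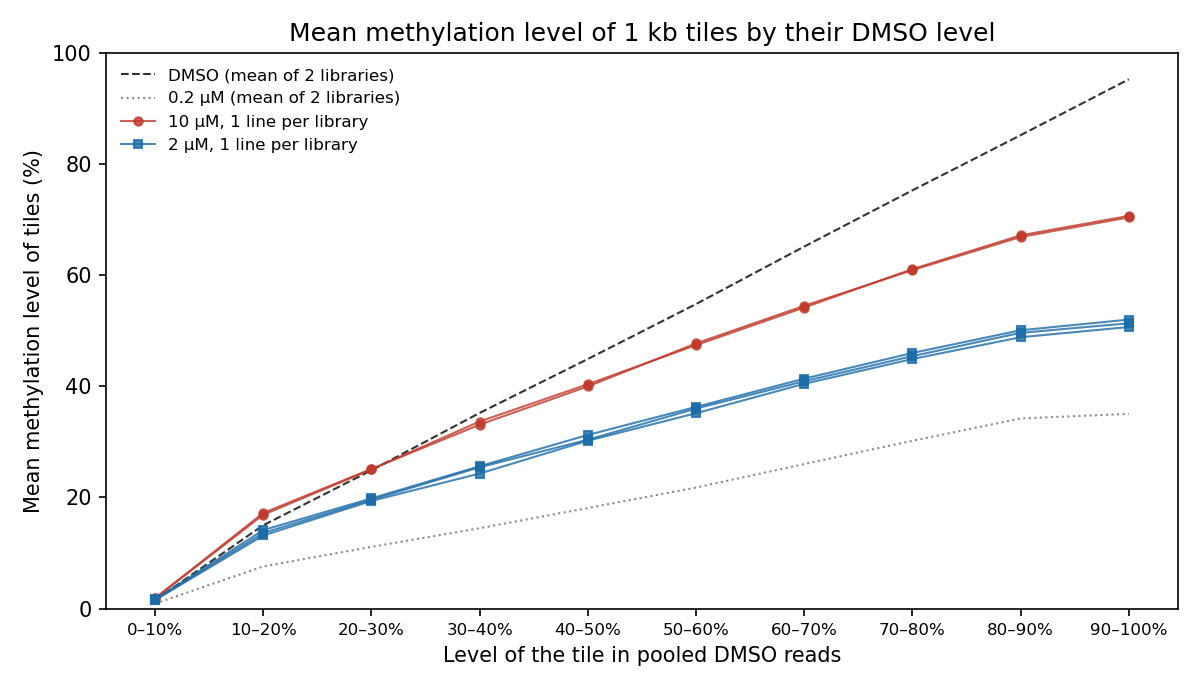
Mean methylation level of 1 kb tiles in percent (y) against the class of their level in pooled DMSO reads (x), with 1 line per library for 2 µM and 10 µM and the mean of 2 libraries for DMSO and 0.2 µM. The 10 µM lines lie above the 2 µM lines in each class, by 0.260 points in the class at 0 to 10% and by 19.2 points in the class at 90 to 100%, and the DMSO line follows the classes because the same reads made them.

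The shape of the distribution changed with it. At 2 µM, 2.04% to 2.28% of tiles kept a level of 80% or above in a library, and at 10 µM 13.8% and 15.9% did. Tiles at 40 to 60% made up 31.8% to 33.8% of tiles at 2 µM and 21.3% and 22.3% at 10 µM. In the DMSO libraries 44.6% and 45.1% of tiles stood at 80% or above. Many strongly methylated tiles thus sat near the middle of the scale at 2 µM and nearer the top at 10 µM.

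The gap differed in size, not in direction, between classes of position and CpG number. Tiles within 1 kb of a gene start or end differed by 7.50 points, those elsewhere in genes by 15.9 points and those outside genes by 13.9 points. Their DMSO means were 36.4%, 74.8% and 71.1%, and the ratios of the 10 µM to the 2 µM mean were 1.34, 1.37 and 1.33. The position classes were not matched for DMSO level, so an effect of position itself was not tested. Among tiles at 80% or above in DMSO, those with 6 to 10 CpGs differed by 19.2 points and those with over 40 CpGs by 15.6 points. In the latter, 1040 CpG-dense methylated tiles, the 2 µM libraries lay at 55.0%, 55.3% and 56.0% and the 10 µM libraries at 70.8% and 71.1%, while the 0.2 µM mean was 59.9%, above the 2 µM libraries. On the X chromosome, tiles at 80% or above in DMSO differed by 15.4 points, and autosomal tiles of that class by 18.7 points. The difference between those gaps was not tested. Each of the 19 autosomes and the X had every 10 µM library above every 2 µM library, with gaps between 11.7 and 13.0 points.

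No single tile passed the test as run here. The test was a binomial model of methylated reads with a dispersion moderated by limma, with Benjamini-Hochberg adjustment over all tiles. At adjusted p under 0.05, 0 of 86748 tiles (0%) were called higher and 0 (0%) lower, with a smallest adjusted p of 0.0858. At unadjusted p under 0.05, 16090 tiles were higher and 84 lower, and limma on the level in percent also called 0, with 18588 higher and 452 lower unadjusted. Other alternatives did call tiles. They called 670 higher and 1 lower with a minimum of 20 reads, 1129 and 1 without scaling of read numbers, and 3456 and 6 with all 9 libraries in the fit. The change was above 0 in 80.5% of tiles. All 10 µM libraries lay above all 2 µM libraries in 34292 tiles (39.5%) and below them in 1979 (2.28%). The median tile had 29 to 52 reads in a library. A stretch with 15 of 30 reads methylated has a 95% Wilson interval from 33.2% to 66.8%, for counting error only.

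Gene bodies gave the most calls. Of 17041 bodies tested, 5580 (32.7%) were higher at 10 µM and 4 (0.0235%) were lower, at adjusted p under 0.05 in the same test over all bodies. The higher bodies formed 5119 separate loci once overlapping genes were merged, and 4743 of them were protein-coding genes, of 12527 tested. In 5526 of the 5580 the libraries did not overlap. Over all bodies tested, 10741 (63%) had every 10 µM library above every 2 µM library, and 122 (0.716%) had every one below. The median level over all bodies was 45.6% at 2 µM, 61.8% at 10 µM and 76.1% in DMSO, and the median change was 14.7 points.

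The rise was broad, with a change above 0 in 92.7% of the 17041 bodies. Each body was also tested against the common shift of all bodies, 0.622 on the log odds scale. In the same test 0 bodies were called above it and 0 below it. At unadjusted p under 0.05, 913 were above and 749 below. In simulated data without a shift, 4.59% of unchanged bodies at middle levels had such a p. There the test called only 64 of 200 bodies changed by 1 on that scale. The 0 calls thus do not show that bodies rose alike. Among bodies at 80% or above in DMSO, 3131 of 7501 were called higher, with a median change of 19.5 points. Of the 1117 bodies under 10% in DMSO, 6 were called higher and 3 lower, and the median change was 0.310 points. Calls also followed depth, from 16.1% of bodies with 10 to 49 reads in the shallowest library to 56.8% of those with 200 or more. Without 10 µM replicate 1 the count fell to 2570 and without 10 µM replicate 2 to 2860, and 1351 bodies were called with every library left out in turn.

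**Figure D2:**
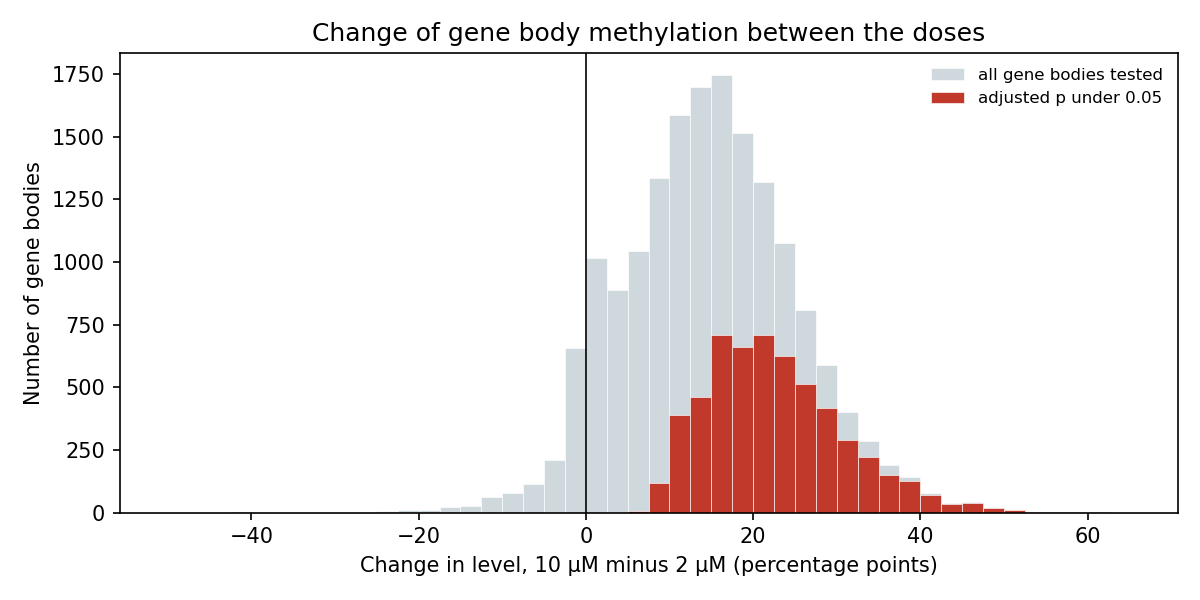
Number of gene bodies (y) by change in level, 10 µM minus 2 µM, in percentage points (x), in steps of 2.5 points, for all 17041 bodies tested and, in front, the 5580 called higher and 4 called lower. Bodies with a change above 0 make up 92.7% of all tested, the median is 14.7 points, and the 4 lower calls are too few to see.

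The 7 bodies described here for large rises had 10 µM means of 74.3% to 96.7%. Pomk (chr8:25980604-25994121), which encodes a protein O-mannose kinase, was at 35.3%, 35.8% and 43.2% at 2 µM and 88.7% and 79.0% at 10 µM. Its change was 45.8 points (adjusted p = 0.000578). All 4 of its tiles had the 10 µM libraries above the 2 µM libraries, as had 39.5% of all tiles tested. Those tiles share the reads by which Pomk was chosen, so this is not separate support.

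Spata5, a AAA ATPase of ribosome maturation (chr3:37419903-37579096), was at 39.5%, 49.3% and 54.9% at 2 µM and 93.9% and 94.1% at 10 µM. Its DMSO mean was 92.9%. The shelterin gene Terf2ip, which encodes the telomere protein RAP1 (chr8:112011359-112020528), was at 39.1%, 47.1% and 65.6% at 2 µM and 93.5% and 100% at 10 µM. Arfip2, which binds small GTPases of the Arf family (chr7:105634201-105640416), was at 30%, 50% and 29.9% at 2 µM and 83.1% and 86.7% at 10 µM. In these 3 genes both 10 µM libraries lay above the highest 2 µM library, and those of Terf2ip and Spata5 lay close to the DMSO means.

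Mansc4 (chr6:147075062-147087032) had the largest change among bodies that met the naming rule, 51.1 points, from 29.7%, 22.8% and 41.7% to 86.7% and 78.3%. Purg, a purine-rich element binding protein (chr8:33385619-33417472), was at 33.3%, 25.6% and 19% at 2 µM and at 60% and 88.6% at 10 µM. The cytochrome P450 gene Cyp4f13 (chr17:32924688-32947415) was at 35.9%, 65.9% and 43.7% at 2 µM and 88.1% and 100% at 10 µM. The groups did not overlap in any of the 7 genes, whose adjusted p-values ran from 0.000523 to 0.00280. Reads per library in them were 30 to 183, and Purg was the only one of the 7 that lost its call when a library was left out (adjusted p = 0.0598 at most).

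The 6 called bodies with the most reads, chosen after their values were seen, changed by less. Slc39a11, a zinc transporter (chr11:113244851-113650200), was at 45.2%, 45.6% and 46.0% at 2 µM and 60.1% and 62.1% at 10 µM, a change of 15.5 points. Its levels came from 2695 to 5117 reads (adjusted p = 0.00241). Camta1, a calmodulin-binding transcription activator (chr4:151059523-151861768), was at 45.5%, 47.3% and 49% at 2 µM and 61.3% and 60.3% at 10 µM. In both genes the libraries of a dose lay close together and those of the doses apart.

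The neuronal splicing factor Rbfox3 (chr11:118489760-118911597) was at 34.9%, 36.1% and 36.5% at 2 µM and 47.4% and 46.4% at 10 µM. Of its 60 tiles, 54 had a change above 0, 36 had the groups apart upward and 1 downward. Gse1 (chr8:120228501-120581383) was at 33.3%, 34.6% and 34.5% at 2 µM and 45.9% and 45.2% at 10 µM. In Gse1, 74 of its 91 tiles had a change above 0. Over all tiles tested, 80.5% had a change above 0, 39.5% had the groups apart upward and 2.28% downward. Rbfox3 and Gse1 were picked from called bodies, so their tiles are not separate support. The centrosomal gene Sfi1 changed by 12.3 points and the glypican gene Gpc6 by 10.6 points, both with the groups apart. The Sfi1 level came from 6307 to 12159 reads per library on only 91 CpGs in 7 tiles. Gse1 had 4650 to 9481 reads on 1854 CpGs. The cause of the depth at Sfi1 was not tested. In these 6 genes the change was thus 10.6 to 15.5 points, beside a median of 14.7 points for all bodies. Camta1 and Slc39a11 kept their call with each library left out in turn, Gse1, Rbfox3 and Sfi1 in 4 of the 5 settings and Gpc6 in 3, with adjusted p-values of up to 0.0751.

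**Figure D3:**
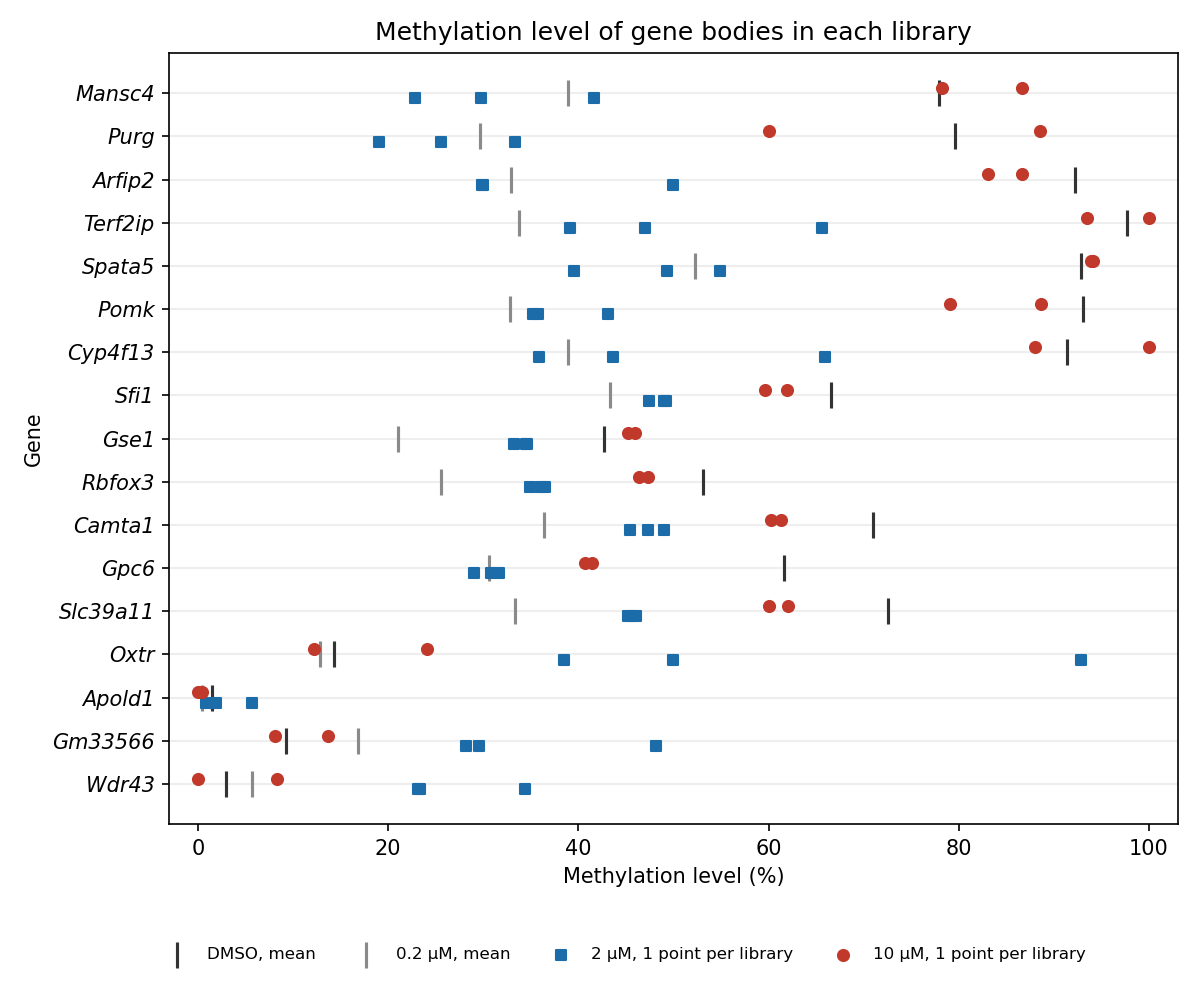
Methylation level in percent (x) of 17 gene bodies (y), with 1 point per library for 2 µM (squares) and 10 µM (circles) and bars at the DMSO and 0.2 µM means. The upper 7 are the large rises described, the next 6 the called bodies with the most reads, and the last 4 all bodies called lower, where the circles lie left of the squares.

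Only 4 bodies were called lower, and 1 of them met the rule of 30 reads in every library and a named gene. In the fit run first, with the spread moderated towards that of all bodies, 0 were called lower. All 4 thus rest on the moderation chosen after that result was seen. Apold1, an apolipoprotein L domain gene known from endothelial cells (chr6:134982001-134986836), was at 0.822%, 1.88% and 5.64% at 2 µM and at 0.417% and 0% at 10 µM. This change of -2.57 points (adjusted p = 0.0417) lay within the unmethylated range, and the DMSO mean was 1.52%. Oxtr, the oxytocin receptor gene (chr6:112473683-112491035), was at 38.5%, 92.9% and 50% at 2 µM and 12.2% and 24.1% at 10 µM, from 13 to 49 reads. Its DMSO libraries were at 28.6% and 0%.

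The other two lower bodies were also shallow. The non-coding RNA gene Gm33566 (chr17:57148802-57171792) was at 48.2%, 29.5% and 28.2% at 2 µM and 13.6% and 8.11% at 10 µM. Wdr43, a ribosome biogenesis gene (chr17:71616178-71659031), was at 34.4%, 23.4% and 23.2% at 2 µM and 8.33% and 0% at 10 µM, with a DMSO mean of 2.94%. In Gm33566, Wdr43 and Oxtr every 2 µM library lay above the DMSO mean, and in Apold1 2 of the 3 did. None of the 4 kept its call with each library left out in turn: Wdr43 kept it in 0, Apold1 and Gm33566 in 1 and Oxtr in 2 of 5 settings.

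Gene starts gave fewer calls, and most were unmethylated at both doses. Of 16494 start windows of 13899 genes, 93 (0.564%) of 85 genes were higher at 10 µM and 0 (0%) lower. At unadjusted p under 0.05, 1966 were higher and 22 lower, and limma on the level called 0 either way, with 2335 higher and 208 lower unadjusted. The median change was 0.314 points. In 10176 windows the DMSO level was under 10%, and there the median was 0.572% at 2 µM and 0.577% at 10 µM. Of the 93 called windows, 92 were at 50% or above in DMSO, and in all 93 the groups were apart, as they were upward in 4561 (27.7%) and downward in 942 (5.71%) of all windows.

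The start calls depended on how the spread was modelled and on single libraries. With the spread of each window moderated towards that of all windows, the fit run first, 0 were called, and the 93 rest on moderation towards windows at 10 to 90%, chosen after that result was seen. Without 2 µM replicate 1, without 2 µM replicate 2 or without 10 µM replicate 2 none passed, without 2 µM replicate 3 there were 18, and without 10 µM replicate 1 there were 54. Their adjusted p-values lay at 0.0145 or above. Against the median shift of all windows, 0.296 on the log odds scale, 0 were called either way. At unadjusted p under 0.05, 643 were above it and 78 below. Most windows behind that median were under 10% in DMSO, where the median change was 0.00718 points. The shift thus does not measure a common rise of gene starts, and the 0 calls do not show one.

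The start of Eci1, an isomerase of mitochondrial fatty acid oxidation (chr17:24425683-24427683), had the smallest adjusted p, 0.0145. It was at 48.0%, 52.5% and 50.2% at 2 µM and at 88.2% and 86.6% at 10 µM, from 202 to 383 reads, a change of 37.2 points. The start window of Mcts2, an imprinted retrogene whose upstream sequence is printed above (chr2:152686148-152688148), was at 59.7%, 32.7% and 35.8% at 2 µM and 87.3% and 89.1% at 10 µM. Its change was 45.5 points (adjusted p = 0.0386), with 1 of the 2 µM libraries well above the other two. The start of Slc6a9, the glycine transporter GlyT1 (chr4:117848350-117850350), was at 50.5%, 49.7% and 44.6% at 2 µM and 89.3% and 88.5% at 10 µM.

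Rln3, which encodes the neuropeptide relaxin-3 (chr8:84043979-84045979), had the largest change among windows that met the naming rule, 48.6 points, from 26.1%, 48.2% and 50% to 82.4% and 97.7%, and 1 DMSO library had no read there. Necab3 (chr2:154557853-154559853) changed by 43.1 points, the synaptic vesicle gene Sv2b (chr7:75308262-75310262) by 36.7 points, the transcription factor gene Nfix (chr8:84771875-84773875) by 36.6 points and the retinal fascin gene Fscn2 (chr11:120360534-120362534) by 36.5 points. All had adjusted p-values of 0.0386 to 0.0480 and groups that did not overlap.

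The 6 called start windows with the most reads, chosen after their values were seen, changed by less. Hoxd11 (chr2:74681323-74683323), a limb and axis patterning gene, was at 43.4%, 53.9% and 54.2% at 2 µM and 65.4% and 71.4% at 10 µM. Flt1, the VEGF receptor 1 gene (chr5:147725011-147727011), was at 30.4%, 36.1% and 38.4% at 2 µM and 51.2% and 53% at 10 µM, beside a DMSO mean of 51.5%. The kainate receptor gene Grik3 changed by 17.3 points, the afadin gene Afdn by 16.4 points, Begain by 15.6 points and Tmem200b by 18.6 points. In 5 of the 6, all but Flt1, both 10 µM libraries stayed below the DMSO mean.

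**Figure D4:**
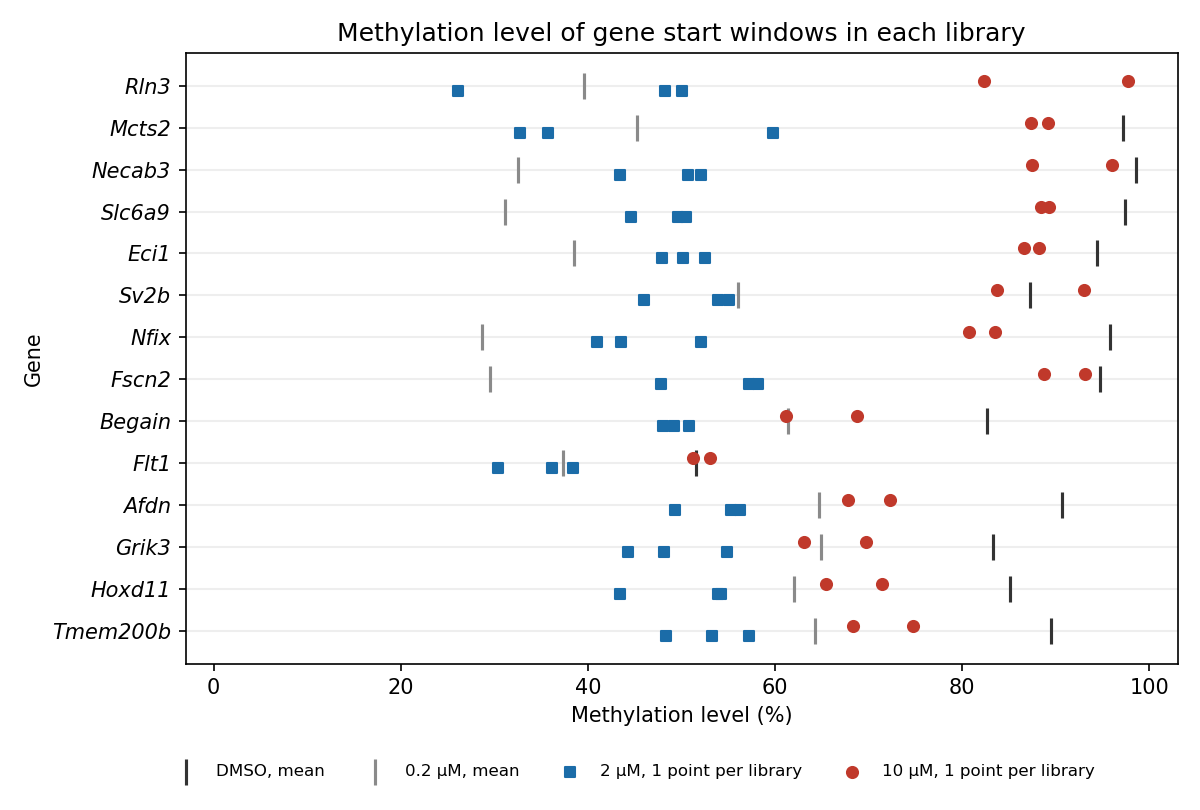
Methylation level in percent (x) of 14 gene start windows (y), with 1 point per library for 2 µM (squares) and 10 µM (circles) and bars at the DMSO and 0.2 µM means (for Rln3 no DMSO mean, since 1 DMSO library had no read). The upper 8 are the largest rises and the lower 6 the called windows with the most reads, and circles lie right of squares in every row.

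Gene lists were then read against the 32.7% of bodies and 0.564% of start windows called higher overall. These shares rose with the DMSO level. Of bodies under 10% in DMSO 0.537% were called higher, and of those at 80% or above 41.7%. For start windows the shares were 0% and 3.49%. The lists were not matched for DMSO level, so a share above 32.7% does not set a list apart. Germline genes, whose starts are methylated in somatic cells, had a median start level of 92.1% in DMSO, 51.7% at 2 µM and 71.7% at 10 µM. All 20 measured starts had a change above 0, as had 65.9% of all windows, and 1 was called. The median change of the germline starts was 18.4 points, beside 0.314 for all windows. For all start windows at 80% or above in DMSO the median was 17.0 points and the first quartile 10.8 points. The called start was that of Dazl, a germ cell RNA-binding protein (chr17:50292620-50294620), at 55.4%, 59.5% and 52.4% at 2 µM and 73.1% and 85.3% at 10 µM (adjusted p = 0.0480). The germ cell helicase gene Ddx4 was at 36.5%, 63.7% and 49.7% at 2 µM and 78.9% and 75.9% at 10 µM (adjusted p = 0.0858). Of 16 germline bodies 8 were higher, namely Sycp1, Asz1, Tuba3a, Zfp42, Tdrd9, Piwil2, Mov10l1 and Taf7l, and their adjusted p-values ran from 0.00345 for Tdrd9 to 0.0499 for Zfp42.

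Imprinted genes are normally methylated on 1 parental copy, but the measured starts had a median DMSO level of 79.3%. The Mcts2 window was at 97.2% and 97.1% in the DMSO libraries, so nearly all its reads were methylated without the drug. Whether these starts kept their imprints was not tested. Of 18 measured starts 15 had a change above 0 and only Mcts2 was called. The median change was 9.35 points, beside 12.4 for all start windows at 50 to 80% in DMSO. Of 19 bodies 8 were higher, namely Nnat, Gnas, Snrpn, Inpp5f, Cdkn1c, Grb10, Meg3 and Airn. Cdkn1c, a cyclin-dependent kinase inhibitor (chr7:143458339-143461059), was at 51.7%, 54.5% and 55.7% at 2 µM and 75.6% and 76.1% at 10 µM (adjusted p = 0.000873). The start of Kcnq1ot1 was at 18.9%, 46.2% and 18.7% at 2 µM and 0% and 32.5% at 10 µM, with groups that overlapped (adjusted p = 0.980).

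The enzymes that write, read and remove methylation showed the split between starts and bodies. Of 13 measured starts 0 were called and the median level was 0.967% at 2 µM and 0.780% at 10 µM. Of 14 bodies 6 were higher, namely Dnmt1, Dnmt3a, Mbd2, Mbd3, Tet2 and Uhrf2. Dnmt1, the maintenance methyltransferase and the main target of the drug (chr9:20907206-20959888), was at 51.6%, 58.7% and 55.8% in its body at 2 µM and 75.8% and 71.6% at 10 µM, a change of 18.3 points (adjusted p = 0.00191). Its start was at 0.151% to 0.674% in the 5 libraries. The de novo methyltransferase gene Dnmt3a changed by 15.6 points in its body.

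Genes for the uptake and metabolism of deoxynucleosides, through which the drug enters and leaves its active form, had 7 of 15 bodies higher and 0 of 17 starts. They were the nucleoside transporters Slc28a3, Slc29a1, Slc29a2 and Slc29a3, the deaminases Cda and Dctd, and the dNTP hydrolase Samhd1. Slc29a3 (chr10:60712072-60752849) was at 48.9%, 54.2% and 55.9% at 2 µM and 77.7% and 79.7% at 10 µM (adjusted p = 0.00304). Cda, which deaminates and so inactivates 5-aza-dC (chr4:138338528-138368311), was at 55.0%, 50.7% and 42.9% at 2 µM and at 66.2% in both 10 µM libraries. The start of Dck, the kinase that activates the drug, was at most 0.475% in the 5 libraries.

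Genes of the p53 and DNA damage response had 4 of 17 bodies higher, Pmaip1, Sesn2, Brca2 and Bax, and 0 of 16 starts. Brca2, a recombination repair gene (chr5:150522297-150570147), was at 44.3%, 55.0% and 65.8% at 2 µM and 76.2% and 88.6% at 10 µM. The body of Cdkn1a, the p21 inhibitor, stood at 5.29% ± 1.30 (SD, n = 3) and 5.92% ± 0.216 (SD, n = 2) (adjusted p = 0.766). Cell cycle inhibitors and tumour suppressors had 5 of 14 bodies higher, Cdkn2b, Wt1, Hic1, Dapk1 and Lats2, and 0 of 13 starts. Cdkn2b, which encodes p15 (chr4:89306289-89311032), was at 20.3%, 44.0% and 29.4% at 2 µM and 66% and 76.7% at 10 µM, from 34 to 100 reads (adjusted p = 0.00555).

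Hox genes, the patterning factors in 4 clusters, had 2 of 20 starts higher, Hoxd11 and Hoxa5. All 20 starts had a change above 0, with a median of 12.7 points, beside 12.4 for all start windows at 50 to 80% in DMSO. The median DMSO level of the Hox starts was 62.0%. Of 32 bodies 7 were higher, Hoxa3, Hoxb3, Hoxb5, Hoxb9, Hoxc4, Hoxc9 and Hoxd4, and the median change was 9.54 points. Hoxa3 (chr6:52169059-52213067) was at 44.6%, 46.5% and 45.2% at 2 µM and 57.4% and 57.8% at 10 µM, from 1529 to 3112 reads. B lineage genes had 7 of 17 bodies higher, Pax5, Ebf1, Irf8, Ikzf3, Cd22, Tcf3 and Syk, and 0 of 11 starts. Ebf1, an early B cell transcription factor (chr11:44618100-45008096), was at 39.4%, 38.4% and 39.4% in its body at 2 µM and 60.6% and 59.5% at 10 µM (adjusted p = 0.000629). No member of these lists was called lower.

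**Figure D5:**
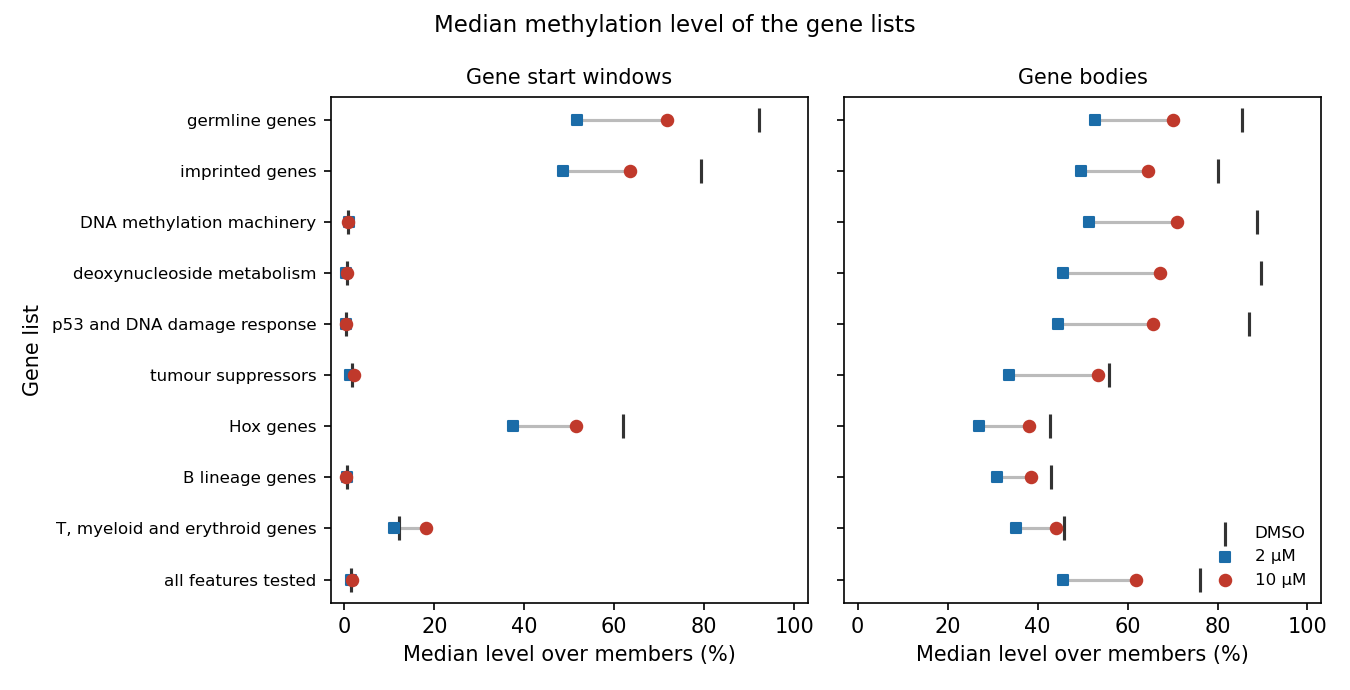
Median methylation level in percent (x) over the measured members of 9 gene lists and over all features tested (y), for start windows (left; the most deeply read window of a gene) and gene bodies (right), at 2 µM (squares), 10 µM (circles) and in DMSO (bars). In the right panel every circle lies right of its square, while at the starts the gap is seen in the germline, imprinted, Hox and T, myeloid and erythroid lists.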

How the data were processed

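RRBS tables of 9 libraries were used, 1 per library, with genome build mm10 per the submitters' processing notes. The authors deposited per CpG the methylated over all reads as text and a score, which equalled the methylated share times 1000, rounded down. Read numbers were taken from the text and the score served as a check. The aligner, the caller and any removal of duplicate reads were not given in the sources used here. Starts were read as 0-based, since 100% of CpGs in RefSeq GRCm38.p6 promoters then sit on CG, and positions are printed 1-based. Lines of unusual width or repeated position were left out.

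Each tile, start window or gene body had 1 level per group in a binomial model. Reads were scaled to an effective size for their correlation within a feature (0.00477 to 0.0523 by coverage class), and the dispersion was moderated with limma 3.58.1 (R 4.3.3), not under 1. The prior was estimated from features at 10 to 90%, a choice made after the results of a prior from all features were seen. That first fit gave 0 tiles, 0 start windows and 3278 bodies called higher. Features with 10 or more reads in each of the 5 libraries were tested, with Benjamini-Hochberg adjustment over all of them. The test was run on simulated data in which 200 features changed by 1 on the log odds scale, up or down, without a common shift. It called 3 of the 200 changed tiles, 70 of the 200 changed start windows and 64 of the 200 changed bodies. Called without a change were 0 tiles, 1 start window and 1 body. A change is the mean level at 10 µM minus that at 2 µM. Library means were compared by exact permutation.

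Named were the 8 largest rises and 3 largest falls with 30 reads per library, groups apart and a named gene, and every called list member. By that rule no tile was named, and 1 of the 8 bodies is not reported here. Start windows of 1 gene or of neighbours can share reads, as can overlapping bodies, and the tables do not tell the alleles of the F1 line apart. The members and lists were chosen with earlier results of these data known. Replicate numbers did not pair the libraries: same-numbered deviations correlated at -0.0109 over tiles, and the labels tie the numbers to library preparation only. Alternatives varied the read minimum, scaling, model, libraries, windows and prior.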

Additional observations from a re-analysis of the deposited data

How the results depend on the processing

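Every mean level by class kept its direction in every alternative run, with differences between 0.164 and 19.5 points. Tile calls depended on the setting. They numbered 670 higher and 1 lower with a minimum of 20 reads, 1129 and 1 without scaling of read numbers, and 3456 and 6 with all 9 libraries in the fit, and 0 with the other alternatives. Higher start windows, 93 as reported, numbered 299 without scaling, 319 with all 9 libraries, 26 in windows of 500 bp either side, 0 with limma on the level, and 0 to 54 with 1 library left out. Higher bodies, 5580 as reported, numbered 1636 with limma on the level and 2570 to 4435 with 1 library left out, and the 4 lower bodies became 0 to 6 with 1 library left out. With all 9 libraries 7 bodies were lower. Against the median change 0 start windows and 0 bodies were called higher, and 0 bodies lower.

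The prior from features at 10 to 90% was chosen after the fit with the prior from all features was seen. Also added after seeing the data were all 9 libraries for starts and bodies, the median change for starts and bodies, and replicates 1 and 2 only. With the prior from all features 0 start windows and 3278 bodies were higher and 0 bodies lower. With replicates 1 and 2 only, 18 start windows were higher and 2 bodies lower. With the replicate block, 0 start windows, 4073 bodies and 0 tiles were higher and 2 bodies lower, and the mean over tiles differed by 12.5 points. The numbers pair nothing by the labels, so this is given only here. Alternatives for named tiles gave no values, since no tile was named. The cause of these differences was not tested. Tiles had a median of 29 to 52 reads per library, which limits their precision.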

Other observations

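Regulators and markers of the T cell, myeloid and erythroid lineages had 7 of 20 bodies higher at 10 µM, Gata1, Gata2, Gata3, Cd4, Tcf7, Mpo and Bcl11b, and 0 of 9 starts. Their median body change was 7.48 points, beside 7.49 for all bodies at 10 to 50% in DMSO and 14.7 for all bodies, and their median DMSO level was 45.8%. The B lineage bodies had a median change of 7.26 points. Gata2, a haematopoietic progenitor transcription factor, was at 27.7%, 34.6% and 33.7% in its body at 2 µM and 47.8% and 47.9% at 10 µM (adjusted p = 0.00294). Bcl11b was at 49.3%, 52.8% and 51.6% at 2 µM and 68.3% and 65.3% at 10 µM.

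The 10 µM level did not always lie below that of untreated cells. Of the 5568 higher bodies with 10 or more pooled reads in both DMSO and 0.2 µM, 4320 had the order 0.2 µM, 2 µM, 10 µM and DMSO from low to high, while in 944 the 10 µM mean was at or above the pooled DMSO level. These bodies were selected for a high 10 µM level, so the counts are a description. Pax5, the B cell identity factor, had a body level of 19.4% ± 0.770 (SD, n = 2) in DMSO. The 2 µM mean was 21.3% ± 1.39 (SD, n = 3) and the 10 µM mean 30.4% ± 2.78 (SD, n = 2). The tiles at 10 to 20% in DMSO likewise averaged 15.0% in DMSO, 13.2% to 14.1% at 2 µM and 16.9% and 17.2% at 10 µM, although sorting tiles by their DMSO reads itself draws the DMSO mean to the class.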
